A study of Rattus norvegicus with 12 samples.

Results

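The miRNAs miR-455 and miR-140 are best known from cartilage. The members described here are the 5p and 3p strands of both hairpins (rno-miR-455-5p, rno-miR-455-3p, rno-miR-140-5p and rno-miR-140-3p), and they are 4 of the 685 miRNA names counted in 12 small RNA libraries. The strands were found by matching these names with a strand suffix, and the pair of hairpins was selected on earlier results of these same counts, so their values in the comparisons below describe where they stand in the whole table and are not independent evidence. The libraries came from primary cortical neurons of Sprague Dawley rats, prepared at embryonic day 17 and grown at 100000 cells per cm2. At day 10 in culture the neurons were transduced with a lentivirus that expressed a short hairpin RNA (shRNA), and they were lysed at day 14. The shRNA was directed against Stau2 (shStau2, 4 libraries) or Pum2 (shPum2, 4 libraries) or had no target (shNTC, 4 libraries), so all 3 groups carried a virus and an expressed hairpin. The design used shNTC as the reference and shPum2 as a further control for background changes that an active shRNA brings. Staufen2, the product of Stau2, recognises paired stretches of RNA and travels in the RNA granules of dendrites, and the Pumilio protein encoded by Pum2 recognises short unpaired motifs in mRNAs. The labels call the 4 libraries of a group biological replicates.

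A miRNA hairpin is cut from a longer transcript and yields a duplex of a 5p and a 3p strand, of which either can be loaded into an Argonaute protein. The loaded strand finds target mRNAs mainly through its seed, bases 2 to 8. The gene of miR-455 lies in an intron of Col27a1, which encodes a fibrillar collagen of cartilage, and that of miR-140 in an intron of Wwp2, which encodes a ubiquitin ligase. In chondrocytes both host genes depend on the cartilage transcription factor Sox9, and mice without miR-140 have shortened bones. In the RefSeq gene table of assembly GRCr8, Mir455 lay within Col27a1 on chromosome 5 and Mir140 within Wwp2 on chromosome 19, and neither had another miRNA gene within 10 kb. The mRNAs of the host genes, and those of Stau2 and Pum2, are not measured in these small RNA tables and were not analysed here.

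The sequences below are shown because partner strands of a hairpin are read by different seeds, and their levels are compared later. RefSeq (GRCr8, plus strand) held a mature entry for 3 of the 4 members, miR-455-5p being the other, and capitals mark the seed.
rno-miR-455-3p: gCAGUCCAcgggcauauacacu
rno-miR-140-5p: cAGUGGUUuuacccuaugguag
rno-miR-140-3p: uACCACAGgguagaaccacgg
The 3 seeds differed from each other, and 0 of the other mature miRNA names in that table, which holds 693 names in all, shared any of them. The hairpins are given with these mature strands in capitals.
Mir455: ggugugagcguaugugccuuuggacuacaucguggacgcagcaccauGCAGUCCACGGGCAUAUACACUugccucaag
Mir140: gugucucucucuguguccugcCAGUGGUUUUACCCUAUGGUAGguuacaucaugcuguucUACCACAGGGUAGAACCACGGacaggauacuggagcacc
The mature strands shown were 21 or 22 bases long. The longest unbroken Watson-Crick matches between the 2 strands of miR-140 were 2 runs of 6 bases, which joined bases 3 to 8 of miR-140-5p with bases 14 to 19 of miR-140-3p, and bases 10 to 15 with bases 7 to 12.

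Depth was similar across the series. Library totals lay between 3836349 and 5415763 counts, 653 to 662 miRNA names had at least 1 count, and the 4 members summed to 0.101 to 0.116% of all miRNA counts per library. As a check of the cell type, 8 of 8 neuron markers were present and 0 passed the test in any comparison, the most abundant being miR-9a-5p, miR-128-3p and miR-137-3p with log2 fold changes of 0.01, 0.10 and -0.03 in shStau2 against shNTC. Their summed level was 297861 to 338869 CPM (counts scaled to a common library size) in shStau2, 286321 to 345158 in shPum2 and 279671 to 329604 in shNTC. Most markers of other cells were present too, at lower sums, so presence alone does not tell the cell type. Those that moved are given beside the results they move with.

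The 4 strands covered a wide range of levels. Over the 12 libraries miR-140-3p averaged 886 ± 39.8 CPM after scaling by the trimmed mean of M-values (TMM), rank 87 of 685 names, next to miR-598-3p above and miR-185-5p below. Its partner miR-140-5p averaged 127 ± 16.9 CPM (rank 208, between miR-423-5p and miR-412-5p), miR-455-5p 63.9 ± 15.0 CPM (rank 266, between miR-137-5p and miR-130b-3p) and miR-455-3p 13.6 ± 3.90 CPM (rank 414, between miR-195-3p and miR-207) (SD, n = 12). The dominant strand therefore came from opposite arms: the 5p strand of miR-455 and the 3p strand of miR-140. All 4 were well above a floor of 3 counts, with 37 to 91 counts per library for miR-455-3p, 149 to 404 for miR-455-5p, 449 to 751 for miR-140-5p and 3442 to 4459 for miR-140-3p. Ligation and amplification favour some sequences, so levels of different strands are comparable only roughly.

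**Figure D1:**
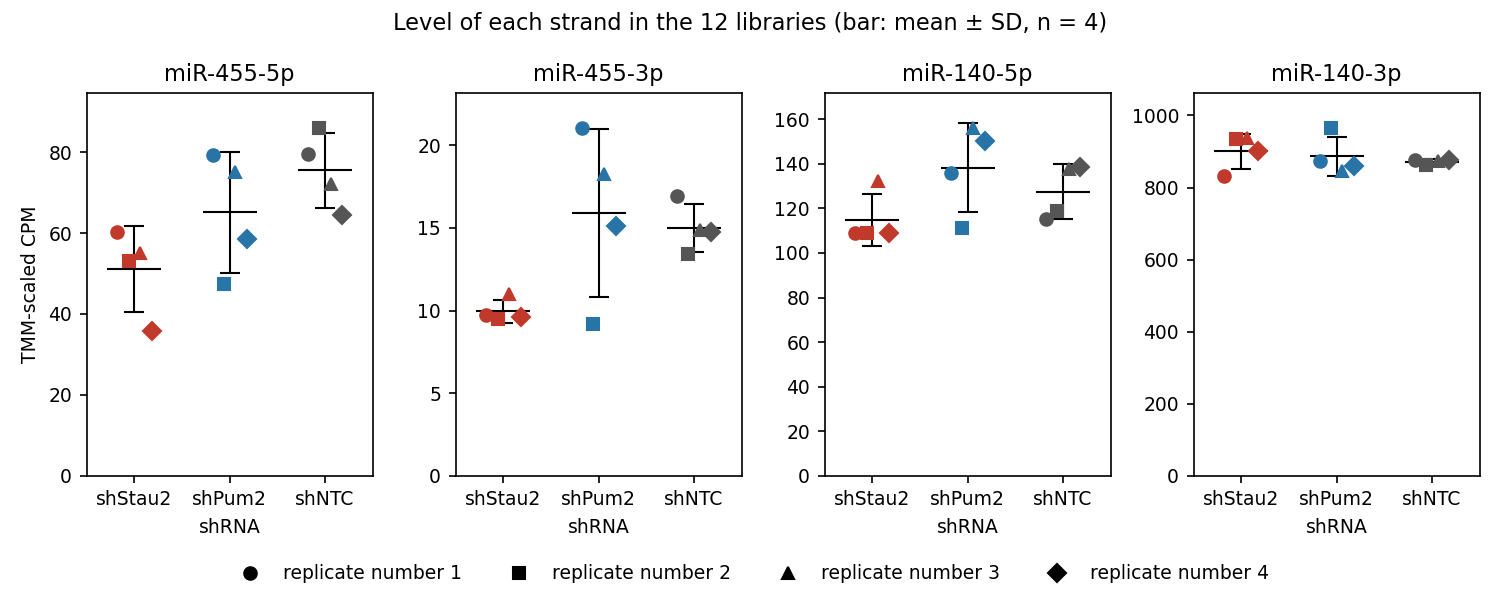
TMM-scaled CPM (vertical axes, each from 0) of each strand in the 12 libraries by shRNA, with a point per library shaped by its replicate number and the mean ± SD of 4 libraries as bars. Both miR-455 strands are lower in all 4 shStau2 libraries than in any shNTC library, shPum2 replicate 2 is the lowest shPum2 library for 3 strands, and miR-140-3p is almost level.

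The comparison of shStau2 with shNTC asks what accompanies the shRNA against Stau2, whose effect on Staufen2 is not measured in these data. Both strands of miR-455 were lower by about the same amount, while the strands of miR-140 differed little. MiR-455-5p, the abundant strand of its hairpin, had 60.3, 53.1, 55.0 and 35.7 CPM in the shStau2 libraries 1 to 4, against 79.6, 85.9, 72.1 and 64.4 CPM in the shNTC libraries. Every shStau2 library was below every shNTC library, with shStau2 replicate 4 the lowest of all 12. The means were 51.1 ± 10.7 CPM in shStau2 and 75.5 ± 9.31 CPM in shNTC (SD, n = 4 each), and the fitted log2 fold change was -0.56 with an SE of 0.18. This did not pass edgeR's quasi-likelihood test across all miRNA names (adjusted p = 0.217, unadjusted p = 0.00704, rank 19 of 628 by p).

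MiR-455-3p, the minor strand, had 9.76, 9.51, 11.0 and 9.59 CPM in the shStau2 libraries, against 16.9, 13.4, 14.9 and 14.8 CPM in the shNTC libraries. Again the groups did not overlap, and the shStau2 libraries lay close together. The log2 fold change was -0.59 (SE 0.21; edgeR adjusted p = 0.283, unadjusted p = 0.0125), on means of 9.97 ± 0.700 CPM in shStau2 and 15.0 ± 1.46 CPM in shNTC. For each strand the shStau2 library was lower in 4 of 4 pairs of the same replicate number, by 0.39 to 0.85 on the log2 scale for miR-455-5p and by 0.44 to 0.80 for miR-455-3p. Of all 628 names tested, 33 had every shStau2 library below every shNTC library, which is 5.25%.

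Replicate numbers pair the libraries in these data, and with the number as a block in the same edgeR fit both miR-455 strands passed. MiR-455-5p fell, at -0.58 on the log2 scale (SE 0.13, adjusted p = 0.0147), as did miR-455-3p at -0.59 (SE 0.17, adjusted p = 0.0470). In that fit 2 of 4 members fell, where 3.82% of all names tested did (24 of 628). Without the block 0 of 4 members passed, where 0.318% of all names did (2 of 628), and 2 of 4 had an unadjusted p under 0.05, as did 11.3% of all names. DESeq2 called 0 of 4 without the block, where it called 4.29% of the 420 names to which it gave an adjusted p. With the block it called 1 of 4, miR-455-5p, as lower, where 5.7% of 421 such names were lower. These denominators are smaller than the 628 names of the edgeR fits. With upper-quartile factors in the blocked edgeR fit neither strand passed (adjusted p = 0.0597 for miR-455-5p and 0.0717 for miR-455-3p). The blocked calls depended on single replicate numbers: without number 4 neither strand passed (adjusted p = 0.137 for miR-455-5p and 0.193 for miR-455-3p), and without number 1 or 3 miR-455-3p did not (0.164 and 0.102).

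MiR-140-5p had 109, 109, 132 and 109 CPM in the shStau2 libraries 1 to 4, against 115, 119, 138 and 138 CPM in the shNTC libraries. The groups overlapped through shStau2 replicate 3, although the shStau2 library was lower in 4 of 4 same-number pairs. Its log2 fold change was -0.15 (SE 0.13; edgeR adjusted p = 0.721, and 0.357 with the replicate block). MiR-140-3p had 832, 933, 937 and 901 CPM in shStau2 and 876, 861, 874 and 876 CPM in shNTC. The shNTC values lay inside the range of shStau2, and the difference was 0.05 on the log2 scale (SE 0.08, adjusted p = 0.898), with its sign turned under scaling to library totals (-0.02).

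**Figure D2:**
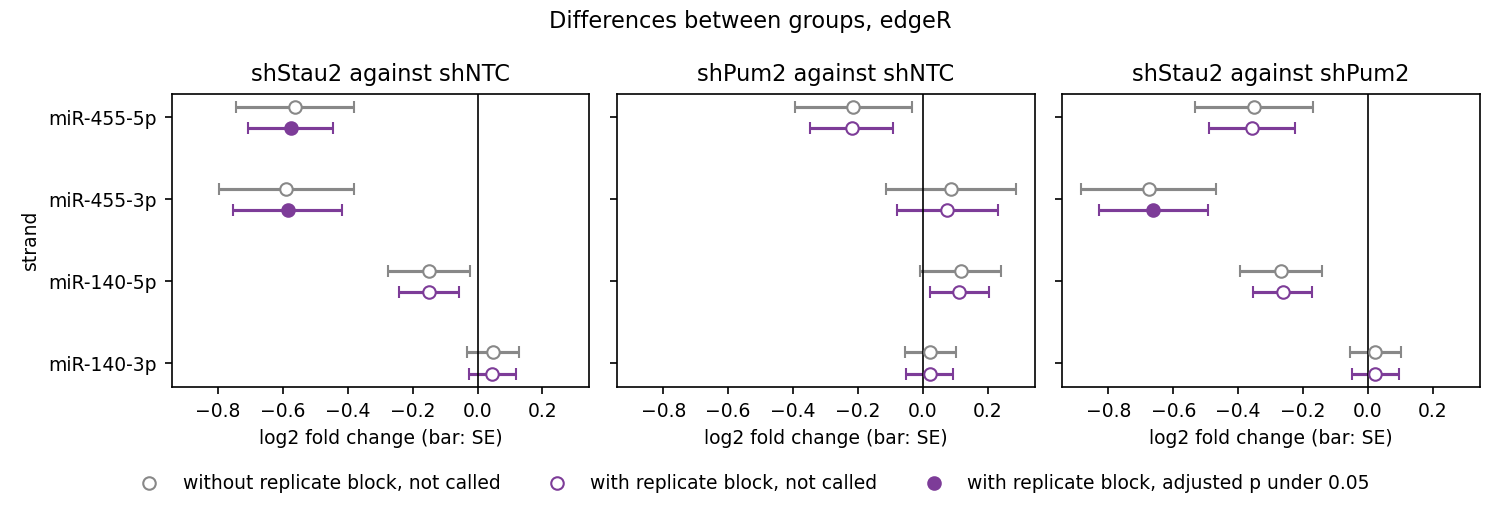
Log2 fold changes (horizontal axis, bars are SE) of the 4 strands in the 3 comparisons, from edgeR fits without and with the replicate number as a block. Filled points have an adjusted p under 0.05 over 628 miRNA names, and they are the miR-455 strands in shStau2 against shNTC and miR-455-3p in shStau2 against shPum2, each with the block.

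Markers of other cell types moved in the same comparison. In bulk libraries, fewer cells of a type and less RNA per cell cannot be told apart. The counts of markers stand beside 0.318% of all names called without the block and 3.82% that fell with it. The lists were chosen with earlier results of these data known, and they count both strands of some hairpins. The marker counts are therefore a description and not independent evidence. Of the 6 astrocyte markers 0 passed without the block and 5 fell with it: miR-21-5p (-0.97), miR-21-3p (-1.18), miR-23a-3p (-0.49), miR-27a-3p (-0.51) and miR-27a-5p (-1.27 on the log2 scale), and the other, miR-24-3p, had -0.14 in either fit. Their summed level was 4676 to 6144 CPM in shStau2 and 6825 to 9575 CPM in shNTC, without overlap. Of the 5 tested blood or microglia markers miR-155-5p fell with the block (-0.54), beside miR-146a-5p at -0.64 and miR-142-3p at -0.32 in the same fit, which did not pass, nor did miR-223-3p (-0.02) and miR-150-5p (-0.06). The sum of that list was 142 to 275 CPM in shStau2 and 203 to 397 CPM in shNTC. The red cell miRNA miR-451-5p, too low to be tested, had 0 counts in the 4 shStau2 libraries and averaged 1.41 ± 1.77 CPM in shNTC, an SD above its mean. In shPum2 it averaged 0.683 ± 0.795 CPM. The other strand, miR-451-3p, is not on the list. It averaged 6.72 CPM over the 12 libraries and was tested, but its comparisons are not given here. Of the 8 tested markers of vessels, smooth muscle or fibroblasts miR-126a-5p of endothelium fell (-0.46), and the more abundant miR-126a-3p, miR-143-3p and miR-199a-3p had -0.24, -0.02 and -0.21 in that fit and did not pass. Their sum was 572 to 836 CPM in shStau2 and 664 to 1003 CPM in shNTC. The 4 oligodendrocyte markers, led by miR-338-3p (-0.05), miR-219a-5p (-0.35) and miR-219a-2-3p (0.32), had 0 calls and sums of 255 to 282 CPM in shStau2 and 223 to 341 CPM in shNTC. The part of these cell types in the miR-455 values was not tested.

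Of the other miRNAs known from collagen genes or chondrocytes, those that passed belonged to the miR-29 family. Of 18 listed, 17 were tested in shStau2 against shNTC, and 1 fell without the block: miR-29b-3p, which represses collagen mRNAs (-1.16, edgeR adjusted p = 0.00911), where 0.318% of all names were called. With the block 2 fell, miR-29b-3p (-1.18) and its relative miR-29a-3p (-0.68), where 3.82% of all names fell. Not all of the family passed: miR-29c-3p had -0.20 without the block (edgeR adjusted p = 0.702) and -0.21 with it (adjusted p = 0.250). The median log2 fold change of the list was -0.07 without the block, beside 0.00 for all names tested, and 11 of 17 were below 0. The most abundant of them, miR-26a-5p, had 0.17 (adjusted p = 0.304), and miR-27b-3p, which targets the collagenase Mmp13 in human chondrocytes, had -0.07 (adjusted p = 0.891).

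The comparison of shPum2 with shNTC asks what another active shRNA changes, and none of the 4 strands passed. MiR-455-5p had 79.3, 47.3, 75.2 and 58.6 CPM in the shPum2 libraries 1 to 4, a mean of 65.1 ± 14.8 CPM in shPum2 against 75.5 ± 9.31 CPM in shNTC (log2 fold change -0.21, SE 0.18, edgeR adjusted p = 0.982). MiR-455-3p had 21.0, 9.17, 18.3 and 15.1 CPM in shPum2, a mean of 15.9 ± 5.10 CPM in shPum2 against 15.0 ± 1.46 CPM in shNTC (0.09, SE 0.20, adjusted p = 0.982). For both strands shPum2 replicate 2 was the lowest library of its group and the groups overlapped. Without that library the log2 fold changes were -0.07 for miR-455-5p and 0.29 for miR-455-3p, and without shPum2 replicate 1 that of miR-455-3p was -0.06, none past the test. MiR-140-5p had 136, 111, 156 and 150 CPM in shPum2, a mean of 138 ± 20.0 CPM in shPum2 against 128 ± 12.2 CPM in shNTC (0.12, SE 0.13, adjusted p = 0.982). This value was 0.23 without shPum2 replicate 2 and 0.05 without shPum2 replicate 3, neither past the test. MiR-140-3p had 874, 964, 847 and 860 CPM in shPum2, where replicate 2 was the highest, and its log2 fold change was 0.02 (SE 0.08), with the sign turned under upper-quartile scaling (-0.001). In edgeR's test 0 of 4 members passed with or without the block and 0 had an unadjusted p under 0.05, and DESeq2 called 0 with or without it. Without the block 0% of all 628 names passed and 1.43% had an unadjusted p under 0.05. Of all 628 names, 0.159% fell with the block and 0.318% with the block in DESeq2. With the block, 1 of 6 astrocyte markers fell, miR-23a-3p (-0.37), beside a summed level of that list of 5506 to 7607 CPM in shPum2 and 6825 to 9575 CPM in shNTC, and 0 of the 17 collagen and cartilage miRNAs tested passed in either fit.

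The comparison of shStau2 with shPum2 sets the 2 active shRNAs against each other. It shares its shStau2 libraries with the first comparison. MiR-455-3p averaged 9.97 ± 0.700 CPM in shStau2 and 15.9 ± 5.10 CPM in shPum2, which differed by -0.68 on the log2 scale (SE 0.21; edgeR adjusted p = 0.331, unadjusted p = 0.00528). With the replicate block it fell (-0.66, SE 0.17, adjusted p = 0.0299). The groups overlapped through shPum2 replicate 2 alone, at 9.17 CPM, and 3 of 4 same-number pairs were lower in shStau2. Without that library the strand passed in the fit with no block as well (-0.88, SE 0.16, adjusted p = 0.0120). The share of all names that passed in that fit is not given here, so the call is a description. Without replicate number 1, 3 or 4 the blocked call ended (adjusted p = 0.229, 0.174 and 0.170).

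MiR-455-5p averaged 51.1 ± 10.7 CPM in shStau2 and 65.1 ± 14.8 CPM in shPum2 (log2 fold change -0.35, SE 0.18, edgeR adjusted p = 0.544, and 0.134 with the block). Its order over the groups was shStau2 lowest, then shPum2, then shNTC, and neither neighbouring pair in that order differed beyond the spread in the test. MiR-140-5p averaged 115 ± 11.7 CPM in shStau2 and 138 ± 20.0 CPM in shPum2 (-0.27, SE 0.13, adjusted p = 0.518, and 0.121 with the block) and was lower in 4 of 4 pairs. Without replicate number 2, both of these strands passed with the block (-0.52, adjusted p = 0.00438 for miR-455-5p; -0.35, adjusted p = 0.0279 for miR-140-5p). How many of all names passed in that setting is not given here, so a general rise in calls cannot be told apart. MiR-140-3p averaged 901 ± 48.6 CPM in shStau2 and 886 ± 53.1 CPM in shPum2 (0.02, SE 0.08, adjusted p = 0.947), with the sign turned under library totals (-0.04). Without the block 0 of 4 members passed, where 0.478% of all names did, 1 had an unadjusted p under 0.05 (9.39% of all names did) and DESeq2 called 0 (1.12% of the 626 names with an adjusted p). With it 1 of 4 fell, where 2.39% of all names fell, and DESeq2 with the block called 0, where 4.98% of the 482 names with an adjusted p were lower. Of the marker lists, miR-27a-5p of the astrocyte list (-0.90), miR-155-5p (-0.61) and miR-142-3p (-0.49) of the blood or microglia list fell with the block. The astrocyte list summed to 4676 to 6144 CPM in shStau2 and 5506 to 7607 CPM in shPum2, the blood or microglia list to 142 to 275 CPM in shStau2 and 226 to 338 CPM in shPum2, and the list of vessels, smooth muscle or fibroblasts to 572 to 836 CPM in shStau2 and 637 to 1106 CPM in shPum2. Their part in the miR-455-3p value was not tested. Of the collagen and cartilage list only miR-29b-3p passed, at -0.99 with the block and -1.0 without it.

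The share of the 2 strands within a hairpin does not depend on library scaling. MiR-455-5p made up 86.1, 84.8, 83.3 and 78.8% of the miR-455 counts in the shStau2 libraries 1 to 4, 79.0, 83.8, 80.4 and 79.5% in shPum2 and 82.4, 86.5, 82.9 and 81.4% in shNTC. The mean log2 ratio of 5p over 3p was 2.32 in shStau2 and 2.32 in shNTC, a difference of -0.0002 (exact two-sided permutation p = 1.0). In shPum2 it was 2.06, a difference of -0.26 from shNTC (exact permutation p = 0.171, adjusted p = 0.343 over 6 such tests; lower in 4 of 4 pairs), and shStau2 minus shPum2 was 0.26 (exact permutation p = 0.286, adjusted p = 0.429). With 4 libraries against 4 the smallest possible p is 0.0286, and a lone p of that size would not pass after adjustment over 6 tests. The absence of a call therefore does not show that the shares were equal.

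MiR-140-5p made up 11.6, 10.4, 12.4 and 10.8% of the miR-140 counts in shStau2, 13.4, 10.3, 15.5 and 14.9% in shPum2 and 11.6, 12.1, 13.6 and 13.6% in shNTC. Its log2 ratio to miR-140-3p differed by -0.20 in shStau2 against shNTC (exact permutation p = 0.114, adjusted p = 0.343; lower in 4 of 4 pairs), by 0.09 in shPum2 against shNTC (exact p = 0.686, adjusted p = 0.823; 0.23 without shPum2 replicate 2 and 0.004 without shPum2 replicate 3) and by -0.28 in shStau2 against shPum2 (exact p = 0.171, adjusted p = 0.343). None of the 6 differences passed, and the groups overlapped in each. The miR-455 shares rest on 189 to 490 counts per library, and the counting error is correspondingly wide.

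**Figure D3:**
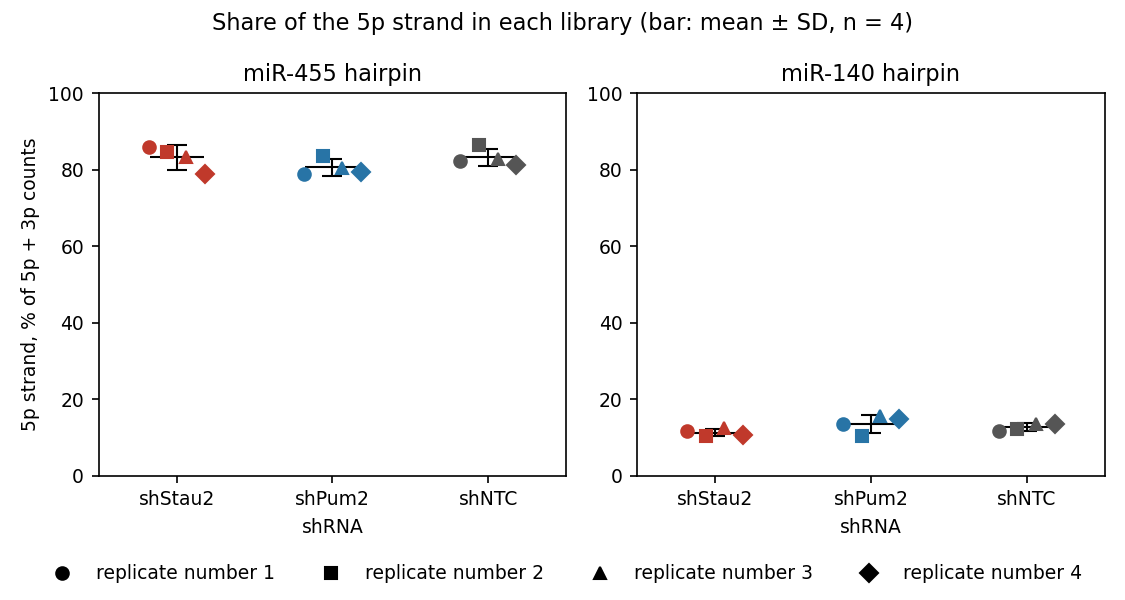
Share of the 5p strand in the counts of its hairpin (vertical axes, percent from 0 to 100) in each library by shRNA, with the mean ± SD of 4 libraries as bars and points shaped by replicate number. The 5p strand holds 78.8 to 86.5% of miR-455 and 10.3 to 15.5% of miR-140, and the groups overlap for both.

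Over the 12 libraries, differences between groups included, the strands of a hairpin varied together for miR-455 and not for miR-140. Over the 12 libraries the SD of log2 CPM was 0.36 for miR-455-5p and 0.40 for miR-455-3p, and that of their log2 ratio was smaller, at 0.27, where counting error alone would give 0.21. For miR-140 it was 0.19 for the 5p and 0.06 for the 3p strand, and that of their ratio was 0.22, where counting error alone would give 0.07. Both counting errors assume that each count is an independent molecule, which is not known here. The SDs over 12 libraries include the lower level in shStau2 that both miR-455 strands share. Within groups the SD was 0.29 for miR-455-5p and 0.31 for miR-455-3p. That of their ratio was 0.32 in shStau2, 0.20 in shPum2 and 0.24 in shNTC, and thus not smaller in every group. Within groups miR-140-3p had an SD of 0.07, the fourth smallest of 628 names, and 1 of 59 other names within 2-fold of its level had a smaller SD (median 0.16). Its 4 shNTC libraries lay within 861 to 876 CPM. MiR-455-5p was more variable than most names of its level, with an SD of 0.29 against a median of 0.21, and 102 of 129 such names had a smaller SD.

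**Figure D4:**
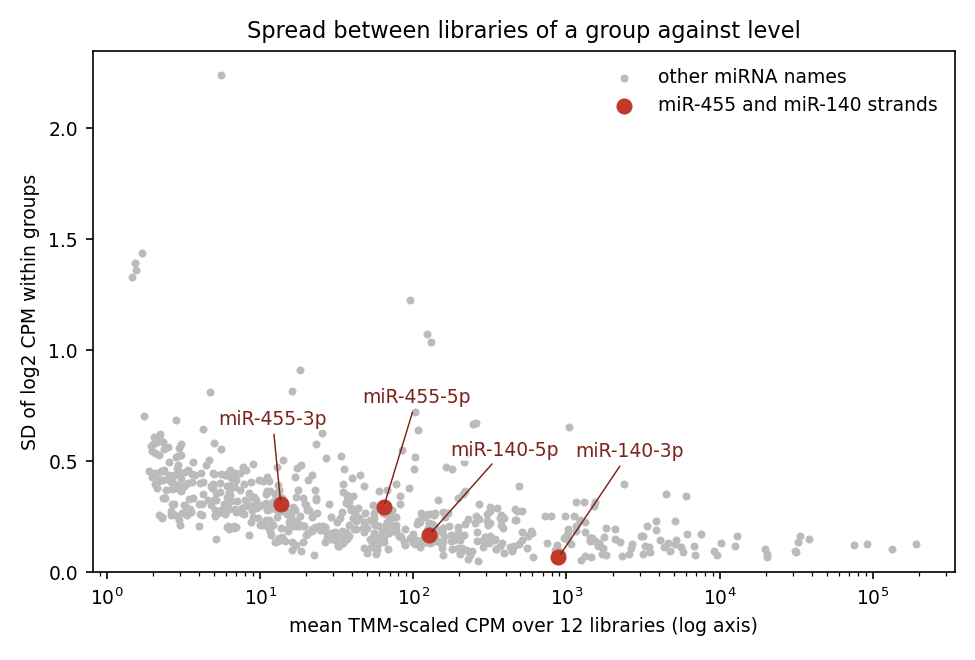
SD of log2 CPM within groups (vertical axis) against the mean TMM-scaled CPM over 12 libraries (horizontal log axis) for the 628 miRNA names tested, each a point, with the 4 strands in red. MiR-140-3p sits at the lower edge of the points at 0.07 and the miR-455 strands at 0.29 and 0.31.

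Part of this variation followed the replicate number. Libraries numbered 4 lay lowest for miR-455-5p, on average 0.27 below their group means on the log2 scale, and in all 3 groups below them; those numbered 1 lay 0.22 above, again in all 3. For miR-140-5p the libraries numbered 3 lay 0.17 above and those numbered 2 lay 0.16 below, each in all 3 groups. For miR-455-3p number 2 lay lowest, by 0.31, mostly through shPum2 (0.70 below its group mean). For miR-140-3p the averages by number stayed within 0.04 below and 0.05 above the group means. Removing the number means gave an SD within groups of 0.25 for miR-455-5p, against 0.29 with them, and of 0.11 for miR-140-5p, against 0.17, and left that of miR-140-3p at 0.07.

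The miRNAs with the most similar pattern were sought among 447 others with a mean of at least 10 CPM, by Pearson's r of log2 CPM over the 12 libraries, which share groups, replicate numbers and scaling, so r is given as a description. For miR-455-5p they were miR-3587 (r = 0.96), the endothelial miR-126a-5p (0.945) and miR-27a-3p (0.938), and its partner miR-455-3p ranked 20 of 447 (0.77). For miR-455-3p they were miR-27a-3p (0.873), miR-29b-3p (0.871) and miR-3578 (0.839). For miR-140-5p they were miR-130a-3p (0.877), miR-32-5p (0.872) and miR-3068-5p (0.863), and its partner miR-140-3p stood at -0.379. For miR-140-3p no name exceeded 0.663 (miR-210-5p), followed by miR-383-5p (0.646) and miR-207 (0.645).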

How the data were processed

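Small RNA libraries with unique molecular identifiers were made from batch-isolated RNA of integrity number 9.5, per the labels' protocols. The authors deposited 1 table per library with whole-number counts per small RNA name (685 miRNA and 120 piRNA names), not normalised. Per the submitters' processing notes, reads were placed on Rnor 6.0; aligner, counter, and whether reads or molecules were counted are not given in the sources used here. Piwi-interacting RNA names took 0.684 to 0.989% of a library and entered only an alternative.

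The test was edgeR's (version 4.0.16, under R 4.3.3): TMM scaling, filterByExpr (628 kept, 57 removed, 4 of 4 members kept), and the robust quasi-likelihood test in 1 fit of all 12 libraries by group. P-values are two-sided and Benjamini-Hochberg adjusted over all names tested, called under 0.05. Levels are TMM-scaled CPM. Strand ratios, log2((5p + 0.5)/(3p + 0.5)), were compared by exact permutation. Alternatives were upper-quartile factors, library totals, DESeq2 1.42.0, no filter, a replicate block, 8 libraries only, piRNAs included, no robust estimation, and leaving out libraries or numbers. The fit without a block was tested on simulated data, with changes larger than those of the members and no effect of replicate number. The blocked fit was not tested in this way.

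The labels number replicates 1 to 4 per group. Deviations from group means correlated at 0.36 to 0.571 for the 12 same-number pairs and at -0.41 to 0.137 for the 36 others. Each of the 12 libraries correlated best with a library of its own number, so the numbers were taken to pair the libraries. The labels do not say what a number stands for. Members and lists were chosen with earlier results of these data known. Named outside the 4 members were the 3 most abundant members of each list, list members past the test, and the 3 most alike miRNAs with at least 10 CPM. The names miR-451-5p, miR-451-3p, miR-223-3p and miR-150-5p were added after their values were seen. Sequences come from RefSeq (GRCr8).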

Additional observations from a re-analysis of the deposited data

Results flagged for a closer look

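In 3 of 18 groups of 4 values checked, a single library stood apart by Dixon's criterion at the 95% level, which chance gives in about 1 of 20 groups. MiR-140-5p in shStau2 had replicate 3 at 132 CPM and the others at 109, 109 and 109 CPM (gap over range 0.985). For this strand the libraries numbered 3 lay above their group mean in all 3 groups, by 0.11 to 0.21 on the log2 scale. MiR-140-3p in shNTC had replicate 2 at 861 CPM and the others at 874 to 876 CPM (0.851), a gap of less than 2% of the level. MiR-455-3p in shStau2 had replicate 3 at 11.0 CPM and the others at 9.51 to 9.76 CPM (0.836), on 40 to 51 counts per library.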

How the results depend on the processing

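Without a replicate block, the 4 strands gave 0 calls in all alternatives and comparisons except shStau2 against shPum2 without shPum2 replicate 2, where miR-455-3p passed. The replicate block gave 2 calls in shStau2 against shNTC and 1 in shStau2 against shPum2. With library totals in the block the counts were 2 and 1, with upper-quartile factors 0 and 1, and with DESeq2 1 and 0. Leaving out a number within the block gave 0 to 2 and 0 to 3. Shares of all names are given above only for DESeq2 and TMM-scaled edgeR with every library. The other counts of calls are therefore a description. In shPum2 against shNTC the count was 0 in every alternative. The miR-455 strands in shStau2 against shNTC stayed negative in all 27 alternatives, at -0.66 to -0.43 for miR-455-5p and -0.65 to -0.52 for miR-455-3p. Of 324 single-strand alternatives 16 gained a call and 12 turned sign, none of them a called value. Those that turned were miR-140-3p with library totals, without or with the block (-0.017 for both in shStau2 against shNTC, -0.037 and -0.035 in shStau2 against shPum2), with upper-quartile factors in shPum2 against shNTC (-0.0012, and -0.00088 in the block), without number 2 in that comparison (-0.0060), and, in shStau2 against shPum2, without number 3 (-0.023) and without shPum2 replicate 1 (-0.00045, the lowest when a library was left out, the highest being 0.058). MiR-455-3p in shPum2 against shNTC ranged from -0.059 (without shPum2 replicate 1) to 0.29 (without shPum2 replicate 2) and turned, in the block, without number 1 (-0.0048) or 3 (-0.0010). The cause was not tested. With so few libraries the adjusted test of the strand ratios could hardly pass, and no strand ratio passed in any alternative. That of miR-455 in shStau2 against shNTC lay between -0.099 and 0.14 when a library was left out, and that of miR-140 in shPum2 against shNTC between 0.0041 and 0.23; a sign-flip test over 4 pairs cannot pass. Depth limits miR-455-3p most, at 37 to 91 counts per library.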

Other observations

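After the means of group and replicate number were taken out of log2 CPM, miR-455-5p and miR-140-5p, which come from different chromosomes, varied together over the 12 libraries (r = 0.933, against 0.431 before), and so did miR-455-3p with miR-140-5p (0.707, against 0.723 before). MiR-140-3p went the other way to miR-455-5p (-0.663) and to its own partner (-0.426). The 12 libraries share groups, numbers and scaling, and taking out these means leaves fewer than 12 independent values. The r values are therefore given as a description, without their rank among other names. High values were seen outside the members too. MiR-455-5p had 0.869 with miR-3587, 0.871 with miR-126a-5p and 0.878 with miR-27a-3p. MiR-140-5p had 0.901 with miR-32-5p, 0.647 with miR-3068-5p and 0.494 with miR-130a-3p. The summed level of the miR-455 hairpin was 61.0 ± 10.9 CPM in shStau2, 81.0 ± 19.9 in shPum2 and 90.5 ± 9.23 in shNTC, and that of miR-140 was 1016 ± 55.3 CPM in shStau2, 1025 ± 34.1 in shPum2 and 999 ± 16.3 in shNTC (SD, n = 4).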
